A study of Homo sapiens with 6 samples.

Results

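The long regions of RPB1 phosphorylated at Ser2 (pSer2) were the rows of the WT pSer2 list with a length of at least 3000 bp. There were 2938 of them among 102674 WT pSer2 regions (2.86%), and they held 24.7% of the bases of that list (16.7 of 67.6 Mb). The members were selected on the length in the WT pSer2 list, so the length and the enrichment of that list are given as a description. Genes were assigned by the protein-coding or, failing that, long noncoding canonical transcript (GENCODE release 44) that shared the most bases with a region, called its host gene. Of the 2938 members, 2470 had a coding host, 92 a noncoding host and 376 none.

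RPB1, the largest subunit of RNA polymerase II, and its pSer2 form were profiled by ChIP-seq in HepG2 cells, a line from a human liver tumor. The cells were untreated and were either SHP-1-WT (CRISPR control, made with a nontargeting guide) or SHP-1-KO (CRISPR knockout of PTPN6, the gene of the phosphatase SHP-1), and both were grown from single-cell clones. There was 1 library for each antibody and genotype, and each was called against the input of the same cells, so that clone and genotype cannot be told apart and no difference has a replicate check. The lists hold no read counts, the depth is unknown, and the enrichment values of different libraries were not put on a common scale. The 4 lists held from 41605 to 102674 regions, the KO pSer2 list being smaller than the WT list (81012 regions over 54.6 Mb against 102674 over 67.6 Mb). ChIP of RPB1 does not test for the knockout, and the canonical PTPN6 transcript held no pSer2 region in either list. The RPB1 lists held 1 region over it in WT (signalValue 4.01) and 0 in KO. The 7 liver marker genes ALB, AFP, APOA1, TF, TTR, SERPINA1 and FGB all held a WT member.

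The carboxy-terminal domain of RPB1 is a tail of repeated peptides whose serines are phosphorylated in turn during transcription. Polymerase that initiates and pauses near a promoter carries mostly pSer5, and pSer2, placed by CDK9 and CDK12, builds up in the gene body and is highest near and past the polyadenylation site, where it helps recruit 3′ end processing and termination factors. A long pSer2 region is a stretch that was called as 1 continuous enrichment, and signalValue gives how high it stood, as the fold over input at the summit.

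To show the gene ends that such regions run across, the last 30 bases of the canonical transcript are given below for 9 genes whose end lay under one of the 12 longest members or of the 8 members with the highest signalValue. They are read from hg38 on the strand of the gene, 5′ to 3′, and capitals mark the last polyadenylation hexamer AATAAA or, where that was absent, ATTAAA, searched on the transcript strand only. The same members also covered the ends of DSTN, with AATAAA, and RABEPK, with neither hexamer, which are not shown.
APOB, chr2:21001429-21001458, minus strand: aAATAAAtggagtctttattgtgtatcata
RRBP1, chr20:17613679-17613708, minus strand: atgccATTAAAaccaacgttggtgcccggt
SPTBN1, chr2:54671417-54671446, plus strand: aattcttaAATAAAgacatacttcccttca
TGFBR2, chr3:30694113-30694142, plus strand: tgcctcctgttcccattcctagtagctaaa
AKR1C1, chr10:4983254-4983283, plus strand: tatgagttaAATAAAtggcttcgtattaaa
AMBP, chr9:114060127-114060156, minus strand: aAATAAAaactaaattgtaaactcctgaaa
HSPA5, chr9:125234853-125234882, minus strand: gttactgaatATTAAAaagatagacttcaa
CALR, chr19:12944460-12944489, plus strand: aaatttctattaaATTAAAttttgtgtctc
IGFBP1, chr7:45893631-45893660, plus strand: aacatttacAATAAAtattctgcatggaaa

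Of the 11 ends, those of TGFBR2 and RABEPK held neither hexamer in this window. The members ran on from the 9 ends shown by 270 bp at APOB, 1326 bp at HSPA5, 1548 bp at IGFBP1, 2032 bp at CALR, 2136 bp at AMBP, 3590 bp at AKR1C1, 5597 bp at SPTBN1, 7410 bp at RRBP1 and 13977 bp at TGFBR2. Members covered 2010 coding gene ends in all, of which 55.7% held AATAAA (95% Wilson interval 53.5 to 57.8%) and a further 14.5% ATTAAA. The shares were 55.2% and 15.8% for the 734 ends under regions of 2000 to just under 3000 bp, 61.8% and 13.1% for the 2157 ends under shorter regions, and 57.7% and 13.3% over 19444 coding genes. Ends under long regions thus held the hexamers about as often as gene ends in general. All intervals here cover counting error only.

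The next 3 sequences are the 201 bp around the WT pSer2 summit of members that the results below turn on, chosen because the window lies outside every annotated exon. The capital marks the summit base, and the strand is that of the host gene.
MEGF6, chr1:3535517-3535717, minus strand: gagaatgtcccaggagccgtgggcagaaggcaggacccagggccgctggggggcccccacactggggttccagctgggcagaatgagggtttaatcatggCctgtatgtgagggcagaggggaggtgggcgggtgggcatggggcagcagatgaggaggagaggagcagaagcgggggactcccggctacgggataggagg
MLXIPL, chr7:73599983-73600183, minus strand: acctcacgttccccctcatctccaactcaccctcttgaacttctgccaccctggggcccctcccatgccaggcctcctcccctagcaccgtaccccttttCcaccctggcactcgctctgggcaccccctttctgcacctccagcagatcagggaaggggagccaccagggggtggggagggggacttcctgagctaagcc
SPTBN1, chr2:54672074-54672274, plus strand: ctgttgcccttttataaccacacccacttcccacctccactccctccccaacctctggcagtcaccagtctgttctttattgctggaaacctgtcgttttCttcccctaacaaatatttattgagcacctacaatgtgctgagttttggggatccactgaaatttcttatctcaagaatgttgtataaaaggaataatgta

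The MEGF6 and MLXIPL windows were 66.2% and 64.7% GC and lay inside the genes, whereas the SPTBN1 window was 42.3% GC and lay past the gene end, with its summit 728 bp downstream of it. Over all members the summit window had a median GC content of 47.3% (46.8 to 47.8%), against 47.8% in regions of 2000 to just under 3000 bp and 44.3% in all WT pSer2 regions.

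The median length of the members was 4522 bp (quartiles 3571 and 6278.75 bp, highest 89557 bp), 236 were 10000 bp or longer and 36 were 20000 bp or longer. Their median signalValue was 9.21 (9.02 to 9.40), against 6.79 in the 2401 regions of 2000 to just under 3000 bp and 3.69 in all WT pSer2 regions. It was 8.12 in members under 5000 bp, 10.8 in those of 5000 bp to under 10000 bp and 13.2 in those of 10000 bp or more. Just inside the rule were the members over MAPK6 and TUBB at 3000 bp, with signalValues of 13.5 and 16.5, and an intergenic one near LZTS3 at 3001 bp with 7.26. Just outside were regions over ELL2 (2996 bp, signalValue 5.09), ZNF791 (2998 bp, 6.71) and CRBN (2998 bp, 8.38). By chromosome, the share of WT pSer2 regions that were long ran from 1.55% on chromosome 13 to 5.82% on X, where GPC3 alone held 30 members.

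**Figure D1:**
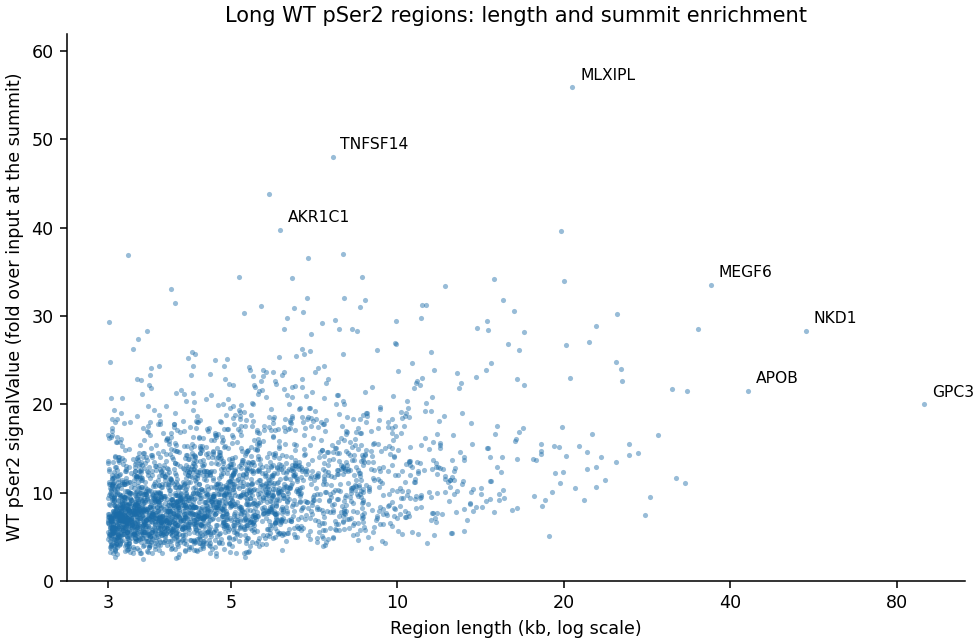
Length of each long WT pSer2 region (x axis, kb, log scale) against its WT pSer2 signalValue (y axis, fold over input at the summit), 1 point a region, the 1 region on chromosome Y left out. Longer regions reach higher values, yet the longest, over GPC3 at 89557 bp, has a signalValue of 20.0, below the 55.9 of the region over MLXIPL.

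The 12 longest members were from 27984 to 89557 bp long. GPC3 encodes glypican-3, a cell surface proteoglycan made by fetal liver and liver tumors, and its longest member covered 89557 bp from the gene start inward (signalValue 20.0 in WT, 19.1 in KO pSer2). NKD1, an inhibitor of Wnt signaling, held 54832 bp (28.3 in WT, 24.9 in KO). APOB, the structural protein of very low and low density lipoproteins, lay whole inside a member of 43113 bp (21.5 in WT, 18.8 in KO). Next came MEGF6 (36825 bp), the KCNQ1 and KCNQ1OT1 locus, where a noncoding RNA runs against KCNQ1 (34924 bp), RRBP1 of the rough endoplasmic reticulum (33399 bp), the spectrin gene SPTBN1 (33171 bp), TRIM24 (31868 bp), the fatty acyl-CoA synthetase gene ACSL4 (31393 bp), the TGF-beta receptor gene TGFBR2 (29617 bp), the transcription factor gene HLF (28642 bp) and FNDC3B (27984 bp). Of these 12, MEGF6 had no KO pSer2 region, and in the other 11 KO pSer2 regions covered from 97.3% to 100% of the bases. Their ratio of KO to WT signalValue ran from 0.644 at ACSL4 to 2.15 at HLF, where the KO summit lay outside the WT region.

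These 12 members differed widely in total RPB1. The APOB member was 99.8% covered by WT RPB1 regions and 99.9% by KO RPB1 regions, with RPB1 signalValues of 82.1 and 63.8. The KCNQ1 member was 78.6% covered in WT and 64.0% in KO. By contrast, the RPB1 lists covered 1.87% and 4.86% of the FNDC3B member, 2.64% and 11.8% of the TGFBR2 member, and 0% of the SPTBN1 member in both. A long pSer2 region thus could lie over near-complete RPB1 cover or over none that was called.

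By height, 7 of the 8 highest members are given, and the first was over MLXIPL, the gene of the glucose-responsive factor ChREBP (20727 bp, signalValue 55.9 in WT and 21.1 in KO pSer2). The other 6 given here, not ranks in an unbroken order, were TNFSF14, a cytokine gene of the tumor necrosis factor family (48.0 and 16.2), the aldo-keto reductase gene AKR1C1 (39.7 and 28.9), AMBP, which encodes alpha-1-microglobulin and bikunin (39.6 and 25.1), the endoplasmic reticulum chaperone gene HSPA5 (37.0 and 18.99), CALR, which encodes calreticulin (36.9 and 39.5), and IGFBP1, which encodes an insulin-regulated binding protein of insulin-like growth factors (36.6 and 15.5). CALR was the exception among these 7, with a KO value above the WT value. They were picked for the highest WT value, so that a lower value in a second library is what the choice alone tends to give. Except at TNFSF14, where KO pSer2 regions covered 78.6%, KO pSer2 regions covered 92.5% to 100% of each. The 201 bp around the TNFSF14 summit held 55 CA pairs on the strand of the gene, against 9 to 17 at the other 6. The part of this CA-rich stretch in the height was not tested.

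The submitters' annotation placed 43.7% of the members in promoters (41.9 to 45.5%), 28.9% in 3′ UTRs, 9.67% in exons, 8.37% in introns, 5.04% in distal intergenic sequence, 2.42% downstream of genes and 1.97% in 5′ UTRs. Over all WT pSer2 regions introns led with 44.5%, and promoters and 3′ UTRs followed with 23.9% and 10.9%. A longer region touches more annotated features, and the promoter share was 31.9% in regions of 2000 to just under 3000 bp and 62.7% in members of 10000 bp or more. The promoter class was not the same as a gene start. Of the 1283 promoter members, 1052 covered the start of the transcript they were assigned to, but 338 (26.3%) covered the start of a canonical coding transcript and 739 (57.6%) covered the end of one. In 153 of them (11.9%) the pSer2 summit lay within 2 kb of the start of the coding host.

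Counted on canonical coding transcripts, 50.0% of the members covered a gene end (48.2 to 51.8%) and 11.5% a gene start (10.4 to 12.7%). The shares were 26.5% and 7.46% in regions of 2000 to just under 3000 bp, and 4.02% and 4.57% over all WT pSer2 regions. With the submitters' own assigned transcripts, which include short and noncoding ones, the shares were 33.6% and 35.8%, so the excess of ends over starts held for canonical coding transcripts and not for the assigned ones. Of the members, 41.8% covered a gene end and no start, 5.00% held a whole coding gene, 3.20% joined the start and the end of different genes, 3.34% covered a start alone and 46.7% covered neither. Among members with a host, the pSer2 summit lay within 2 kb of the host end in 44.8% and within 2 kb of the host start in 6.21%. In all WT pSer2 regions the shares were 12.2% and 10.2%.

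Whole genes inside members were 159 in number and included those of abundant secreted and serum proteins. AFP, the fetal serum albumin homolog, lay in a member of 24846 bp with a signalValue of 24.7 in WT and 24.2 in KO pSer2. ALB, the gene of serum albumin, lay in one of 19557 bp with 15.1 and 18.6. HSPA5 and IGFBP1 lay in members of 7956 and 6893 bp. In the 147 members that held a whole gene, WT RPB1 covered a median of 94.3% and KO RPB1 a median of 91.1%, against 43.7% and 41.5% in the 1227 that covered an end and no start, and 10.9% and 9.59% in the 1372 that covered neither. Among these 3 sets, RPB1 cover was highest where a whole gene was inside and lowest where no coding start or end was covered, a set that holds intergenic members as well as those within genes.

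The pSer2 summit of members over a gene end lay mostly past that end. The 964 members that covered the end of exactly 1 coding gene ran a median of 2376.5 bp past it (2268 to 2509 bp) and 2341.5 bp before it (2135 to 2480 bp), extents of like size being what the demand to cover the end tends to give. Their summits lay a median of 728 bp downstream of the end (663 to 808 bp), and 710 of the 964 summits (73.7%, 70.8 to 76.3%) were past it. Among 2458 shorter regions that covered 1 end, 59.6% of summits were past it. The members that ran farthest past an end, named for that after their values were seen, were at EML4 (14184 bp), TGFBR2 (13977 bp), SRSF1 (13179 bp), MAP4K4 (12777 bp) and FNDC3B (11278 bp). The KO pSer2 region at the same end ran 12571 bp past EML4, 13887 bp past TGFBR2 and 11299 bp past FNDC3B, but 4513 bp past the splicing factor gene SRSF1 and 468 bp past the kinase gene MAP4K4. Cover by further KO regions beyond the one over the end is not part of these lengths.

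For 885 of the 964 ends a KO pSer2 region also covered the end. It ran a median of 1949 bp past it against 2333 bp in WT. The KO extension was shorter at 630 and longer at 252 of them, by a median of 105 bp, and within 200 bp of the WT one at 415 (46.9%). Seen from the 837 long KO regions over 1 end, the WT extension was longer at 489 and shorter at 315 of 807 shared ends, with a median difference of 38 bp. The direction was the same from either selection, and the size depended on which list was selected. Extension was read from the region over the end, so that a stretch called in pieces counts as shorter. The WT pSer2 list also covers more bases than the KO list (67.6 against 54.6 Mb). The part of either in these lengths was not tested.

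**Figure D2:**
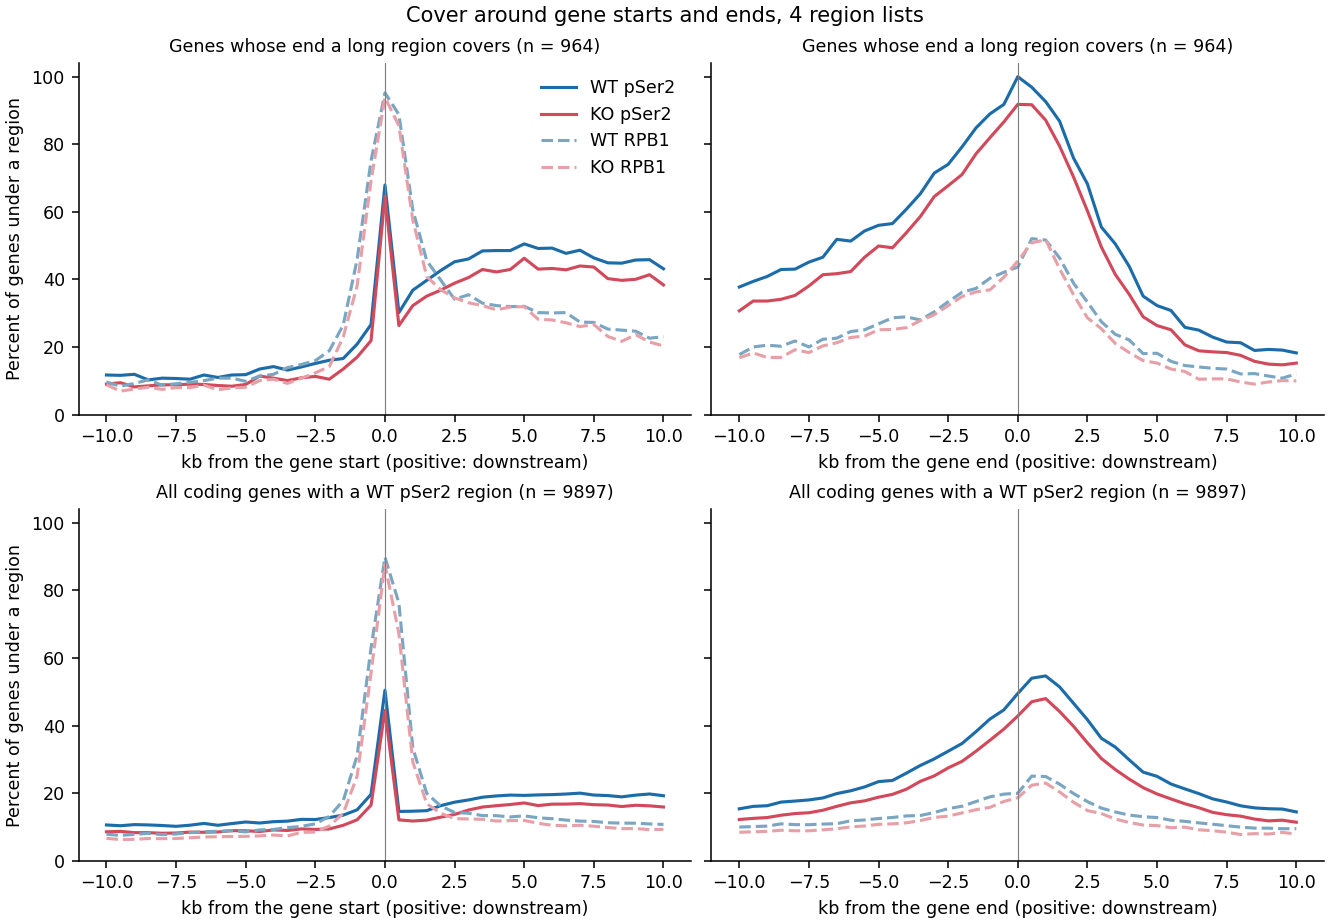
Percent of genes under a region of each list (y axis) at 500 bp steps from 10 kb before to 10 kb after the gene start (left) and the gene end (right), for the 964 genes whose end a member covers (top) and for 9897 coding genes with a WT pSer2 region (bottom). pSer2 (solid) is highest at or just past the end and RPB1 (dashed) at the start, and the WT pSer2 value of 100 at the end in the upper panel is set by how those genes were picked.

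In the genes whose end a member covered, RPB1 was still found mostly at the start. There, 95.2% of the 964 genes lay under a WT RPB1 region and 93.9% under a KO RPB1 region at the start itself, but 43.7% and 45.4% at the end. At 1000 bp past the end, where the pSer2 summits cluster, RPB1 covered 51.7% in WT and 51.8% in KO. pSer2 was at the start in 67.9% of genes in WT and 64.6% in KO, 30.2% and 26.3% at 500 bp, and 50.5% and 46.3% at 5000 bp into the gene. Over the 9897 coding genes with a WT pSer2 region, 50.5% lay under WT pSer2 at the start, 14.6% at 500 bp, and 54.7% at 1000 bp past the end. At each of these positions the KO pSer2 share was below the WT share, but both sets of genes were picked on the WT pSer2 list, which favors WT cover, and that list also holds more regions.

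Most genes held 1 member, and a small number were tiled by many. The 1882 host genes included 1581 with 1 member and 36 with 5 or more, and these 36 held 351 of the members. The leading 5 were FNDC3B with 37 members, GPC3 with 30, SNTB1 with 25, EML4 with 19 and ARHGEF10L with 14, the last tied with RPS6KA3. WT pSer2 regions covered 94.9% of the 362092 bp of FNDC3B, 97.2% of the 449850 bp of GPC3, 87.7% of SNTB1, 94.1% of EML4 and 96.2% of RPS6KA3, and KO pSer2 regions covered between 89.9% and 95.6% of the same 5 genes. The number of long regions was 38 in KO for FNDC3B, 43 for GPC3, 30 for SNTB1, 19 for EML4 and 14 for RPS6KA3, as high as in WT or higher. Total RPB1 regions covered 2.03% to 7.08% of these 5 genes in WT and 2.92% to 6.77% in KO. ARHGEF10L, which encodes a RhoGEF and lies on chromosome arm 1p, was different: WT pSer2 covered 65.1% of it and KO pSer2 47.3%, and it held 14 long regions in WT and 3 in KO. Named after their values were seen, TRIM71 (10 in WT, 4 in KO) and MAN1A1 (12 and 6) held fewer long regions in KO, and their pSer2 cover went from 92.5% to 84.4% and from 85.0% to 73.9%.

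**Figure D3:**
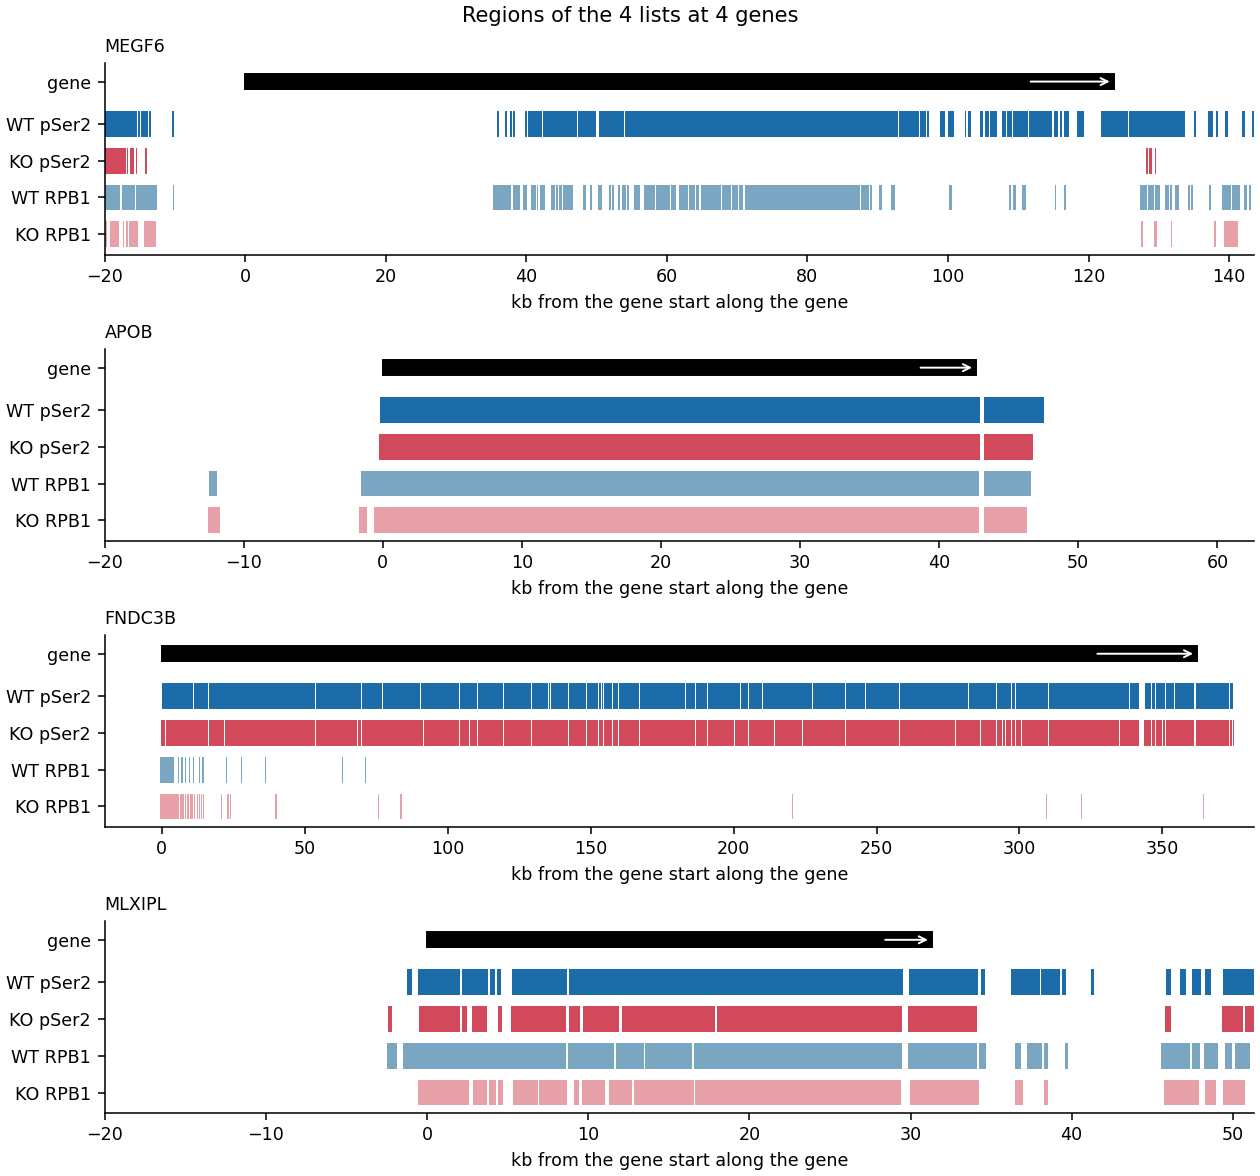
Regions of the 4 lists (colored bars) at MEGF6, APOB, FNDC3B and MLXIPL, as kb from the gene start along the gene, with the canonical transcript in black and 20 kb on each side. MEGF6 has no KO region of either antibody over the gene, APOB is filled in each list, and FNDC3B is tiled by pSer2 regions with RPB1 regions mostly near its start.

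Over all members, WT RPB1 regions covered a median of 34.8% of the bases (30.5 to 39.4%) and KO RPB1 regions 29.9% (26.5 to 33.6%). The KO RPB1 list is smaller as a whole (31.8 against 37.8 Mb). The spread was wide, with WT quartiles of 2.65% and 78.8%. At least 1 WT RPB1 region met 75.8% of the members and at least 1 KO RPB1 region 74.9%. Regions of all 4 lists met in 2046 members, 561 (19.1%) had no RPB1 region in either list, 176 had RPB1 in WT alone and 150 in KO alone. The longest members without WT RPB1, named for that after their values were seen, included those in SPTBN1, GPC3 and PROX1, a hepatocyte and endothelial factor gene. Where both lists met a member, the median ratio of the KO to the WT RPB1 signalValue was 0.904, below 1 in 1276 and above 1 in 775 of 2051. A lower KO value was not particular to the members. Over all WT pSer2 regions that met RPB1, the median highest RPB1 signalValue was 8.83 in KO (22545 regions) and 9.59 in WT (24866 regions). Over the whole RPB1 lists the median signalValue was 5.62 in KO and 5.51 in WT.

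Where a member with a host met a WT RPB1 region, the highest pSer2 and RPB1 summits could be compared along the gene. There the pSer2 summit lay a median of 89 bp downstream of the RPB1 summit (39 to 126 bp), and in 51.8% they were within 1 kb of each other.

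RPB1 cover went with pSer2 height, position and base composition. The 484 members at least 90% covered by WT RPB1 had a median signalValue of 12.6, and 63.6% of them covered a gene end. The 711 members without WT RPB1 had a median signalValue of 7.30, and 30.7% covered a gene end. Of those with a host, 0.710% had their summit within 2 kb of its start, against 6.21% of all members with a host. Whole regions had a median GC content of 55.3% (54.5 to 56.3%) in the first set and 40.8% (40.2 to 41.4%) in the 561 members without RPB1 in either list, against 46.8% over all members. Promoter and intron members had 51.5% and 40.6%. The part of GC content in these differences was not tested.

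KO pSer2 regions covered the members almost whole. At least 1 KO pSer2 region met 99.5% of the members (99.2 to 99.7%), and the median covered share was 94.8% (94.4 to 95.2%), with quartiles of 86.5% and 98.6%. The members were met by 1 KO region in 1153 cases and by 2 or more in 1770. They were picked as 1 continuous WT call, so that more pieces in a second list is what the choice alone tends to give. From either side the long regions met more regions of the other list than their own number. The 2938 members met 6316 KO regions, and the 2474 long KO regions met 4182 WT regions. A KO region that was itself 3000 bp or longer met 68.1% of them. The KO list held 2474 long regions (3.05% of its own), with a median length of 4527.5 bp and a median signalValue of 9.17, close to the 4522 bp and 9.21 of the members. WT pSer2 regions covered a median of 98.4% of the long KO regions, and each of the 2474 met at least 1 WT region.

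**Figure D4:**
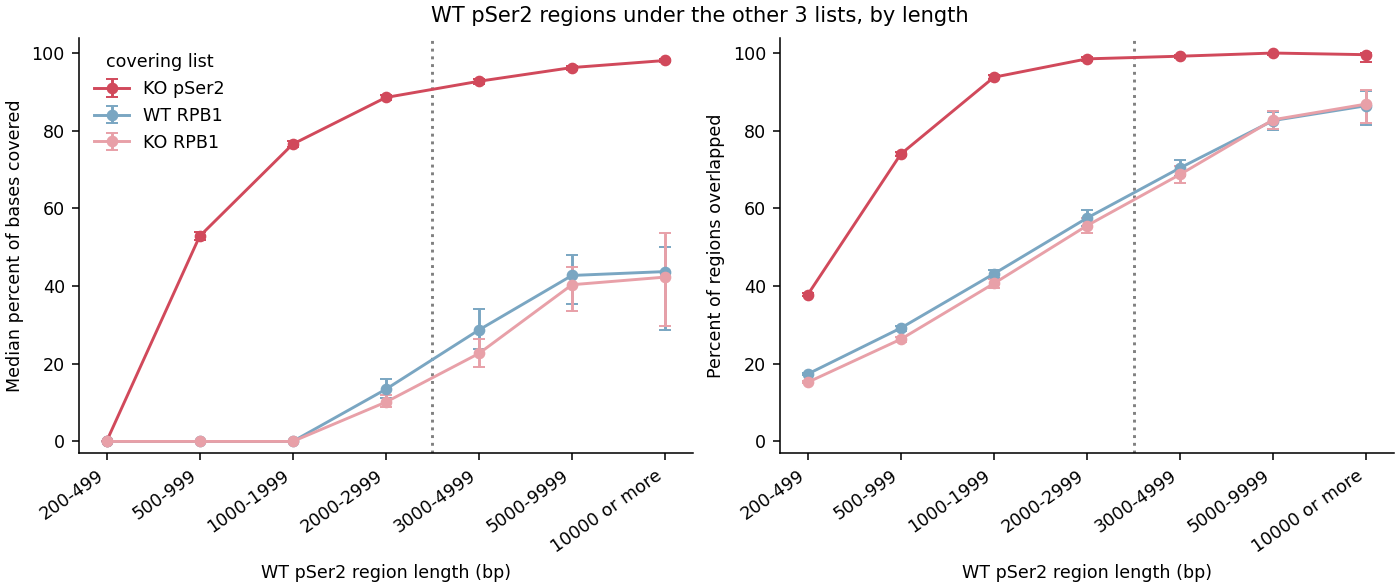
Median percent of bases covered (left) and percent of regions overlapped (right) by the KO pSer2, WT RPB1 and KO RPB1 lists, for WT pSer2 regions in 7 length classes (x axis, bp). Bars are 95% intervals for counting error, and the dotted line marks 3000 bp. Each list covers longer regions more fully, from a median of 0% under KO pSer2 in the shortest class to 98.1% at 10000 bp or more.

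Cover was higher in each longer class from 1000 bp on. The median share of bases under KO pSer2 was 76.5% in WT regions from 1000 to under 2000 bp, 88.6% from 2000 to under 3000 bp, 92.7% in members under 5000 bp, 96.3% in members from 5000 to under 10000 bp and 98.1% in those of 10000 bp or more. WT RPB1 cover was 13.4% from 2000 to under 3000 bp, 28.7% in members under 5000 bp and 43.7% in those of 10000 bp or more. The members thus continued a gradient that ran through shorter regions.

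Members with no KO pSer2 region were 15, or 0.511%, against 47.8% of all WT pSer2 regions. Of the 15 members, 4 were the 4 members of MEGF6, which encodes a protein with epidermal growth factor-like domains. The largest ran from 3520670 to 3557494 on chromosome 1 with a WT signalValue of 33.5, and the others were 4812, 3939 and 3347 bp long with 7.30, 14.8 and 4.51. WT RPB1 regions covered 86.3% of the largest. The WT lists held 35 pSer2 and 43 RPB1 regions over the MEGF6 transcript and the KO lists held 0 of either, although both KO lists had regions within 20 kb on each side of the gene. Whether the KO clone still carries this stretch of DNA was not tested, since the inputs were not analysed here.

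The other 11 were from 3003 to 4474 bp long with signalValues from 5.55 to 10.8. They lay over ACAP3, AHDC1, SERPINA12, RHEX, CROCC2, MCF2L, the iodothyronine deiodinase gene DIO1 and ITIH3, and 3 had no host. No KO RPB1 region met the members over AHDC1, SERPINA12, RHEX and DIO1, of which the one over RHEX had no WT RPB1 region either, while KO RPB1 covered 39.3% of the ACAP3 member against 81.1% in WT. On chromosome arm 1p lay 7 of the 15, and 24 of the 103 members that were less than 50% covered by KO pSer2. The 208 members of 1p had a median KO pSer2 cover of 88.0%, against 95.2% for the other 2730. Named after their values were seen, the members under 50% covered included 1 over MASP1, a complement protease gene (4465 bp, covered 4.48%), and 4 over FREM1 (covered 25.2% to 42.4%).

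In the 2923 members with a KO region, the median ratio of the highest KO signalValue to the WT signalValue was 0.939 (0.927 to 0.952), with quartiles of 0.755 and 1.18. It was below 1 in 1674 and above 1 in 1249. Over the 53584 WT pSer2 regions with a KO region it was 1.02. Seen from the long KO regions, the WT value over the KO value had a median of 1.065 and was above 1 in 1417 of 2474. A ratio of 0.5 or less was found in 3.49% of the members (2.88 to 4.22%) against 1.47% of all overlapped WT regions, and a ratio of 2 or more in 2.67% (2.14 to 3.32%) against 3.4%. The share at 0.5 or less also differed with length and was 0.60% in WT regions under 500 bp, 2.92% from 2000 to under 3000 bp and 2.98% in members of 10000 bp or more, and the part of the calling limit, which a low KO value can miss, was not tested. In 191 members the KO summit lay outside the WT region, because KO regions there ran over into neighboring sequence, and with the KO summit required inside the median was 0.925 in 2833 members.

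**Figure D5:**
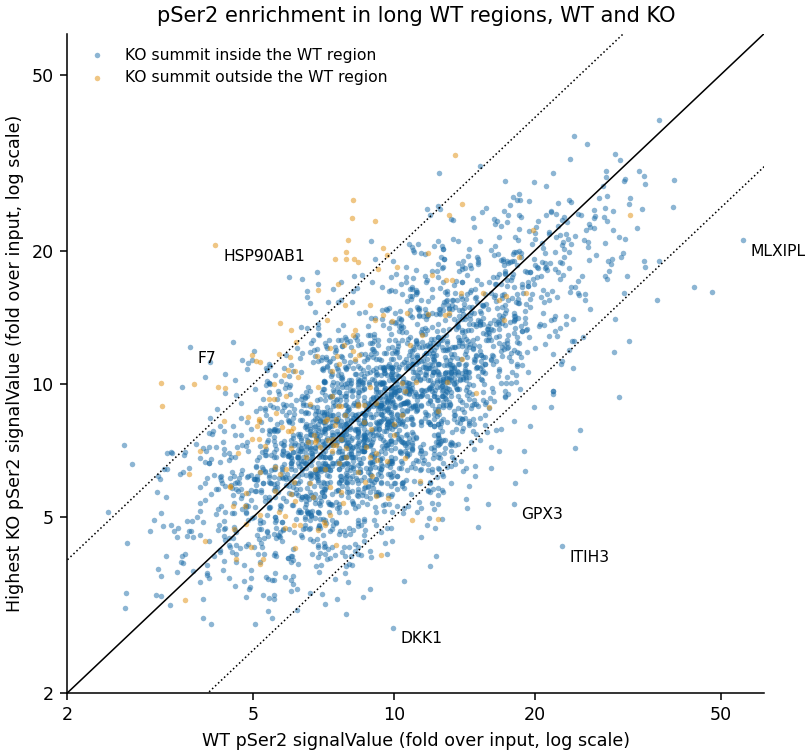
WT pSer2 signalValue (x axis) against the highest KO pSer2 signalValue of an overlapping region (y axis), both fold over input on log scales, for each long WT region with a KO region (chromosome Y left out). The solid line marks equal values and the dotted lines a ratio of 0.5 and 2, and orange points are those with the KO summit outside the WT region, HSP90AB1 among them at 4.14 and 20.6.

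Genes of secreted liver and signaling proteins were among the 5 lowest ratios. ITIH3 encodes a heavy chain of the inter-alpha-trypsin inhibitor, and the member over its end had 22.9 in WT and 4.29 in KO (ratio 0.187). KO pSer2 covered 34.8% of that member but none of the canonical ITIH3 transcript. DKK1, a secreted Wnt inhibitor, had 9.94 and 2.81 (0.283) with 14.1% covered. AMDHD2 had 24.4 and 7.15 (0.293), the plasma glutathione peroxidase gene GPX3 18.0 and 5.35 (0.297), and ERRFI1, a feedback inhibitor of the EGF receptor, 30.2 and 9.35 (0.309). RPB1 cover was lower in KO at these 5 members as well: KO RPB1 covered 24.5% of the ITIH3 member against 69.4% in WT, 0% of the DKK1 member against 74.6% and 3.24% of the GPX3 member against 51.0%. At ERRFI1, on 1p, RPB1 cover was 47.1% in WT and 44.5% in KO.

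Among the 5 highest ratios, 3 were at chaperone or disulfide isomerase genes. HSP90AB1, a cytosolic chaperone, had 4.14 in WT and 20.6 in KO (4.97), RPL27A, a ribosomal protein gene, 8.17 and 26.0 (3.18), and PDIA3, a protein disulfide isomerase gene, 3.17 and 10.0 (3.17), but in these 3 the KO summit lay outside the WT region. The WT list gave HSP90AB1 as 2 long regions, of which the other reached 22.9, and the KO list as 1, with a top value of 20.6 over the gene. With the KO summit inside, F7, the coagulation factor VII gene, had 3.65 and 12.1 (3.31), and PDIA4, another disulfide isomerase gene, 5.95 and 17.4 (2.93). Total RPB1 at the PDIA4 member went from 60.0% covered with a signalValue of 11.5 in WT to 97.6% with 72.2 in KO.

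The next counts take each gene that a member overlapped, host or not, and the gene lists below were counted likewise. By gene, 2442 coding genes held a member, which is 24.7% of the 9897 with any WT pSer2 region, and 1774 of them (72.6%) also held a long KO region. These 1774 were 85.9% of the 2066 coding genes with a long KO region.

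Most genes of secreted liver proteins that had a WT pSer2 region held a long one. Of 26 such genes with a WT pSer2 region, 22 held a member, beside 24.7% of all coding genes with one, and 19 of the 22 also held a long KO region. Their 39 members had a median signalValue of 14.1 and a median length of 10521 bp, against 9.21 and 4522 bp over all members. The ratio of KO to WT was below 1 in 28 and above 1 in 10 of 38, with a median of 0.836 against 0.939 over all members. Over all members the ratio was below 1 in 1674 of 2923. That ratio was also lower over all members at a minimum length of 5000 bp or a stricter WT q-value. No comparison set matched on length or height was used. ALB, AFP, APOB, SERPINA1 and AHSG were covered 100% by pSer2 regions in both lists. For FGB, a fibrinogen chain gene, pSer2 cover went from 87.1% to 6.73% of the gene and the highest signalValue from 8.38 to 4.27. Its neighbor FGA went from 100% to 95.8% and from 20.9 to 13.6. TTR, the transthyretin gene, went from 100% to 48.8%, APOA1 from 100% to 54.6%, and ITIH3 from 67.6% to 0%, as no KO region lay within its canonical transcript.

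Among 12 chaperone genes, 9 held a member, beside 24.7% of all coding genes with a WT pSer2 region. All 9 held a long KO region, beside 72.6% of all coding genes with a member. Their 17 members had a median ratio of 1.10, below 1 in 7 and above 1 in 10, and 1.07 with the KO summit inside, below 1 in 7 and above 1 in 8. Over all members the median was 0.939, below 1 in 1674 and above 1 in 1249 of 2923. The list's median share of a gene under WT and KO pSer2 was 88.2% and 95.4%, and under RPB1 50.4% and 78.8%. The RPB1 signalValue of the 17 members showed no such shift, with a median ratio of KO to WT of 1.01, below 1 in 8 and above 1 in 9. By cover, HSP90B1 went from 48.1% to 99.5% under RPB1, PDIA4 from 46.5% to 86.3% and HSPD1 from 59.2% to 85.1%. HSPA5 went the other way in height, with a top pSer2 signalValue of 37.0 in WT and 18.99 in KO at full cover in both.

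Sterol and fatty acid synthesis genes held a member in 8 of 11 with a WT pSer2 region, beside 24.7% of all coding genes with one. Their 14 members, which lay in 8 genes and are not independent, had a median ratio of 0.730. The ratio was below 1 in 11 of 14, beside 1674 of 2923 over all members. In the 11 members with RPB1 in both lists, the median RPB1 ratio was 0.959, below 1 in 7 and above 1 in 4. Over all members with RPB1 in both lists the median was 0.904, below 1 in 1276 of 2051. HMGCS1, the cytosolic HMG-CoA synthase gene, held 4 long regions in WT and 1 in KO, with 95.6% and 60.8% of the gene under pSer2. SQLE and LSS, which act later in the pathway, went from 46.8% to 22.6% and from 46.8% to 11.7% and held no long KO region. FASN and SCD were covered 97.3% and 97.7% in WT and 96.1% and 91.3% in KO. ACACA, ACLY and INSIG1 held no member.

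Translation genes held a member in 9 of 10, with a median ratio of 0.933 in 11 members. The cytoskeleton and glycolysis genes did so in 9 of 11, with a median of 1.04 in 9 members. Both counts stand beside 24.7% of all coding genes with a WT pSer2 region. RPB1 signalValue in those 9 cytoskeleton and glycolysis members had a median ratio of KO to WT of 0.689, below 1 in 7 and above 1 in 2. Over all members with RPB1 in both lists the median was 0.904, below 1 in 1276 of 2051. Of the gene lists, only sterol and fatty acid synthesis had a median pSer2 ratio (0.730) outside the quartiles of all members (0.755 and 1.18). The immediate early genes held a member in 3 of 12 (MYC, KLF6 and JUND), close to the 24.7% of all coding genes with a region. Among elongation and 3′ end factor genes, 7 of 17 held a member (CCNK, CDK12, SUPT6H, PAF1, SSU72, PCF11 and CPSF1), beside that 24.7%. Their members had a median ratio of 0.844, below 1 in 8 of 10, beside 1674 of 2923 over all members. NEAT1 and MALAT1, abundant nuclear noncoding RNAs, were covered 100% and 99.5% by 1 WT region each, and NEAT1 was given as 3 long regions in KO.

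Gluconeogenesis genes held a member in 3 of 7 with a WT pSer2 region, namely PCK2, PC and HNF4A, beside 24.7% of all coding genes with one. PCK1, the cytosolic phosphoenolpyruvate carboxykinase gene, held no member: its longest WT pSer2 region was 1448 bp with a signalValue of 7.25, WT pSer2 covered 29.6% of the gene and WT RPB1 24.3%, and the KO lists held no region of either. PCK2, the mitochondrial form, was covered 99.3% in WT and 100% in KO. POLR2A, which encodes RPB1 itself, held 19 WT and 11 KO pSer2 regions, the longest WT one of 1326 bp, over 30.9% and 14.9% of the gene.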

How the data were processed

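The authors used Trimmomatic for trimming, BWA for alignment to hg38 and MACS2 for narrow peaks, with the matching input as control, and versions are not given in the sources used here. The deposited lists give each region's position, its signalValue, which is a ratio (summit fold over input), the −log10 of its p-value and q-value, the summit offset, and the submitters' feature and nearest gene. A deposited table of differential RPB1 regions holds the authors' own comparison and was not used. The inputs were not analysed here.

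Lengths were end minus start plus 1. Overlap required at least 1 bp, and covered shares were taken over merged regions. A host gene is the canonical GENCODE release 44 transcript with the most shared bases, coding first. Genes named only by an identifier were left out. Shares have 95% Wilson intervals and medians order-statistic intervals, both for counting error only. No test across regions was run, since each condition has 1 library. The overlap functions were tested on simulated data with known answers. Python 3.11.15, pandas 2.3.3, NumPy 2.4.6, SciPy 1.17.1, pysam 0.24.0 and matplotlib 3.10.9 were used.

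The members, the gene lists and arm 1p were chosen with earlier results of these data known. The genes named are the 12 longest members, the 8 with the highest signalValue, the 5 genes with the most members, the members without a KO pSer2 region, the 5 lowest and 5 highest ratios, the 3 just inside and outside the length rule, PCK1, PTPN6, POLR2A and list genes with a member. The text marks any other gene. Some genes and sequences that these rules reach are not reported here. The alternatives were other lengths, stricter q-values, distinct or joined intervals, chromosomes 1 to 22 and X only, 1p left out, other overlap and ratio rules, and the authors' gene positions.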

Additional observations from a re-analysis of the deposited data

How the results depend on the processing

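No paired analysis was possible because each condition had 1 library. Depth is unknown and no alternative can stand in for a replicate. Of 72 alternative values of 11 results, 32 stayed within the interval of the reported value and 40 moved outside it. For a number of regions the limit was 1.5 times the reported value. Reversals of direction were not counted. Taking distinct intervals, chromosomes 1 to 22 and X only, joined regions within 200 bp (4198 WT and 3357 KO long regions) or promoters within 1 kb of a start moved none.

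With a minimum length of 2000 bp there were 5339 WT and 4366 KO regions, 38.4% in promoters, 39.4% reaching a gene end and 9.70% a gene start, with a median signalValue of 7.83, a median cover of 92.6% by KO pSer2, 23.9% by WT RPB1 and 19.6% by KO RPB1, and 99.0% overlapped by KO pSer2. At 5000 bp these were 1220 and 1002 regions, 53.8%, 59.5%, 15.2%, 11.3, 96.8%, 43.1%, 40.6% and 99.9%, and the ratio was 0.920. Where the WT −log10 q-value had to reach 20, which kept 2270 members, they were 46.3%, 57.8%, 14.3%, 10.5, 95.7%, 47.4%, 44.8% and 99.8%, and the ratio was 0.900. Where regions of the covering list had to reach 5 on that scale, cover was 94.3%, 23.0% and 19.8% by KO pSer2, WT RPB1 and KO RPB1, and 98.8% were overlapped by KO pSer2. That share was 99.7% without arm 1p and 96.5% where at least 50% of the bases had to be covered. The ratio was 0.906 with the KO region of largest overlap and 0.925 with the KO summit inside the region, an alternative chosen after seeing the data. With the authors' assigned genes, 33.6% reached a gene end and 35.8% a gene start, so that the excess of ends over starts turned around with the assigned transcripts, which differ from the canonical ones.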
